A study of Mus musculus with 4 samples.

Results

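A set of 10 NF-kB pathway genes was followed in cultured B16F10 mouse melanoma cells and in B16F10 tumors. Its genes are the subunits Rela, Relb, Nfkb1 and Nfkb2, the inhibitors Nfkbia, Nfkbie and Tnfaip3, and the signalling genes Traf1, Traf5 and Birc3. They were taken by symbol from 24527 gene symbols. RNA was sequenced from 4 sources with 1 library each: B16F10 cells grown alone in 2D, B16F10 cells from 2D co-culture with NIH/3T3 fibroblasts, B16F10 cells from spheroids formed with the same fibroblasts in hanging drops, and B16F10 tumors grown under the skin of female C57BL/6 mice of 1 year of age. Every library is labelled WT. By the methods of the study, the cultures held a B16F10 line that carries a green fluorescent protein, and live fluorescent cells were sorted from them. The host mice were immunocompetent, so that tumors hold host vessels, fibroblasts and leukocytes. The tumor cells are described as sorted too, whereas the library name given to the tumor sample is that of snap-frozen tumor. Markers of leukocytes, vessels, fibroblasts, muscle and fat were high in the tumor library, as given below. Tumor values are those of the whole library and are not assigned to B16F10 cells. The methods give n = 3 for the RNA extraction, but whether the 1 tumor library pools several mice, and at which day of culture RNA was taken, is not given in the sources used here. Each source is 1 library, so differences could not be checked against replicates and p-values are left out. All intervals are 95% intervals that cover counting error only.

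NF-kB is a family of dimeric transcription factors held inactive in the cytoplasm by inhibitors of the IkB family. In the canonical arm, receptors such as those of TNF and interleukin-1 act through TRAF adaptors and the IKK kinase complex, IkB is degraded, and RelA-p50 dimers enter the nucleus. In the non-canonical arm, receptors such as the lymphotoxin beta receptor stabilize the kinase NIK, and p100, the product of Nfkb2, is processed to p52, which pairs with RelB. Several genes of the pathway, among them Nfkbia, Nfkb2, Relb, Tnfaip3, Birc3 and Traf1, are known targets of NF-kB itself. In melanoma, the pathway is known for its part in survival and in the release of cytokines.

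The 250 bases before the annotated start were searched on both strands for the NF-kB consensus, a motif of 10 letters. RefSeq promoters of mouse build GRCm38.p6, the build that mm10 denotes, were at hand for 8 of the 10 genes, all but Nfkb1 and Relb. A match was found before at least 1 start of 4 of these 8 genes, Nfkb2, Nfkbia, Nfkbie and Tnfaip3, against 8.23% of 27025 genes and 7.25% of 32851 promoters in the same windows. The 4 genes fall into different expression patterns described further on, and their windows are shown to place the motif next to those patterns. Capitals mark the matches, and each sequence runs 5′ to 3′ on the strand of the gene and ends at the base before the start.
Nfkb2, chr19:46304487-46304736, plus strand: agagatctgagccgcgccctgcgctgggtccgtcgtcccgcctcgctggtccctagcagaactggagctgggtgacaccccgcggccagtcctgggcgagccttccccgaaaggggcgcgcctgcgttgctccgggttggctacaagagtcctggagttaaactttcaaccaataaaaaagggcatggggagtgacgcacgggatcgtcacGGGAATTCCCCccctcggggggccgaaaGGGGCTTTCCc
Nfkbia, chr12:55492648-55492897, minus strand: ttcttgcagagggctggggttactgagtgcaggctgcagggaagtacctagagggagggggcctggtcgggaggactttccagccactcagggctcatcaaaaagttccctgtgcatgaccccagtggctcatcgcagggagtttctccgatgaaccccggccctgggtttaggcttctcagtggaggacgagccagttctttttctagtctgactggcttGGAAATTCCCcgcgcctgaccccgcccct
Nfkbie, chr17:45555450-45555699, plus strand: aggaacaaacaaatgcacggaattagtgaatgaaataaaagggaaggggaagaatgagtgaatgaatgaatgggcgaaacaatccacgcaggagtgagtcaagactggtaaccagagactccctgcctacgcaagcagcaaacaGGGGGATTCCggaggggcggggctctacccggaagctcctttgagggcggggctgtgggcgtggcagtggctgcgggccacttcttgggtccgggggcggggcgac
Tnfaip3, chr10:19015411-19015660, minus strand: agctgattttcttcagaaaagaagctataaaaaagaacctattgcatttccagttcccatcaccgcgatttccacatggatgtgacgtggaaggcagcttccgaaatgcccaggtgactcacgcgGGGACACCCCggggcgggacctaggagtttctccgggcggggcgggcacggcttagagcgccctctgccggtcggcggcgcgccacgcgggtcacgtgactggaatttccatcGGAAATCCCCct
The Nfkbia window held GGGAATTTCC, read on the opposite strand, 29 to 20 bases before the start. The first Nfkb2 start had a pair of overlapping matches, the palindrome GGGAATTCCC at 39 to 30 bases and GGGGAATTCC on the opposite strand at 38 to 29 bases, and a further match, GGGGCTTTCC, at 11 to 2 bases. Both other annotated starts of Nfkb2 had 1 match each. Nfkbie had GGGGGATTCC at 106 to 97 bases, and Tnfaip3 had GGGACACCCC at 125 to 116 bases and GGGGATTTCC on the opposite strand at 12 to 3 bases. No match lay in the windows of Rela, Traf1, Traf5 and Birc3, nor before the other start of Tnfaip3. These are matches of letters and not measured binding.

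The libraries held between 118896900 and 150028663 reads, and a gene without reads could still have up to 3 reads, or 0.0185 to 0.0262 CPM. CPM are reads of a gene per 1000000 reads of the library, scaled with edgeR's TMM factors, which lay between 0.908 for the spheroid and 1.16 for the tumor. The 8 melanocyte markers summed to between 15170 and 26340 CPM, with reads on all of them in every library. Host cell markers separated the tumor from the cultures: all 12 myeloid markers were over 2-fold higher in the tumor than in 2D monoculture, and their summed level was 2162 CPM against 10.9 to 30.0 CPM in the cultures. Most of the sum in each culture came from Cd68 and Lyz2, with 27.5 and 2.21 CPM in 2D monoculture. The highest other myeloid marker in a culture was Mrc1, with 0.472 CPM in 2D co-culture. None of the 12 was at 0 in the co-culture or the spheroid, and Cd14 and Fcgr1 were at 0 in 2D monoculture. Fibroblast markers summed to 17.6 CPM in 2D monoculture, 679 CPM in 2D co-culture, 36.5 CPM in the spheroids and 2728 CPM in the tumor. Col1a2 alone gave 514 CPM of the co-culture sum. Pdgfrb gave 23.5 CPM of the spheroid sum and 11.0 CPM of the monoculture sum. The spheroid lay under 2D monoculture for Dcn (0.110 against 0.407 CPM), Pdgfra (0.242 against 0.793) and Lum (0.0367 against 0.0491). For all remaining fibroblast markers it lay above. The direction rests on few reads for Lum (5 in the spheroid against 7) and for Fap (4 against 2). The part of host cells and fibroblasts in the results was not tested. In bulk RNA a change in the share of a cell type and a change in RNA per cell cannot be told apart. The log2 ratio of spheroids to 2D monoculture also went with GC content, with Spearman's rho of 0.465 across 12466 genes, and that of tumor to 2D monoculture ran the other way, with rho of -0.381. Genes share the same libraries and are not independent.

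Relb and Nfkb2, the subunits of the non-canonical arm, had their highest level in the spheroid library and their lowest in the tumor. After a correction for GC content and length, described further on, Relb was lowest in the 2D co-culture, since its log2 ratio of 2D co-culture to tumor of 0.79 became -0.24 (-0.20 with the longest transcript as length). Relb (chr7:19606217-19629438) had 23.3 CPM in 2D monoculture, 19.1 CPM in 2D co-culture, 90.7 CPM in the spheroids (interval 89.1 to 92.3) and 11.0 CPM in the tumor. The log2 ratio of spheroids to 2D monoculture was 1.96 (interval 1.91 to 2.02), a 3.90-fold difference, and that of spheroid to 2D co-culture was 2.25 (2.19 to 2.32). Nfkb2 (chr19:46304320-46312385) had 110.3 CPM in 2D monoculture, 86.0 CPM in 2D co-culture, 218 CPM in the spheroids and 30.1 CPM in the tumor. Its level in the spheroid was 1.98-fold that in 2D monoculture, just under the 2-fold limit used for counts (DESeq2 size factors take it over), and 7.25-fold that in the tumor. Its log2 ratio of spheroids to tumor, 2.86, became 0.92 after the correction, and 0.97 with the longest transcript, both under 2-fold. Exons of Psd and of a noncoding RNA on the opposite strand overlap 6.52% and 11.6% of its exon bases, and the library kit is not described as keeping strand.

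Rela (chr19:5637483-5648130), which encodes the main activating subunit of the canonical arm, had 94.0 CPM in 2D monoculture, 87.1 CPM in 2D co-culture, 134 CPM in the spheroids and 25.9 CPM in the tumor. The order of the libraries was that of Relb and Nfkb2, but the spheroid stood only 1.43-fold over 2D monoculture, and after a correction for GC content and length its log2 ratio of 0.51 became -0.21. Nfkb1 (chr3:135584655-135691547), the source of p50, had the narrowest range of the members without the correction: 54.5 CPM in 2D monoculture, 72.9 CPM in 2D co-culture, 49.6 CPM in the spheroids and 35.9 CPM in the tumor, a 2.03-fold range. After the correction its log2 ratios to 2D monoculture ran from 1.12 in the 2D co-culture to -0.47 in the tumor, a wider range than that of Nfkbia. It was the 1 member with its highest level in the 2D co-culture. Neighbouring levels of all 4 subunits differed beyond counting error. With upper quartile factors, the log2 ratio of 2D co-culture to 2D monoculture of Rela, -0.11 here, was 0.01.

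**Figure D1:**
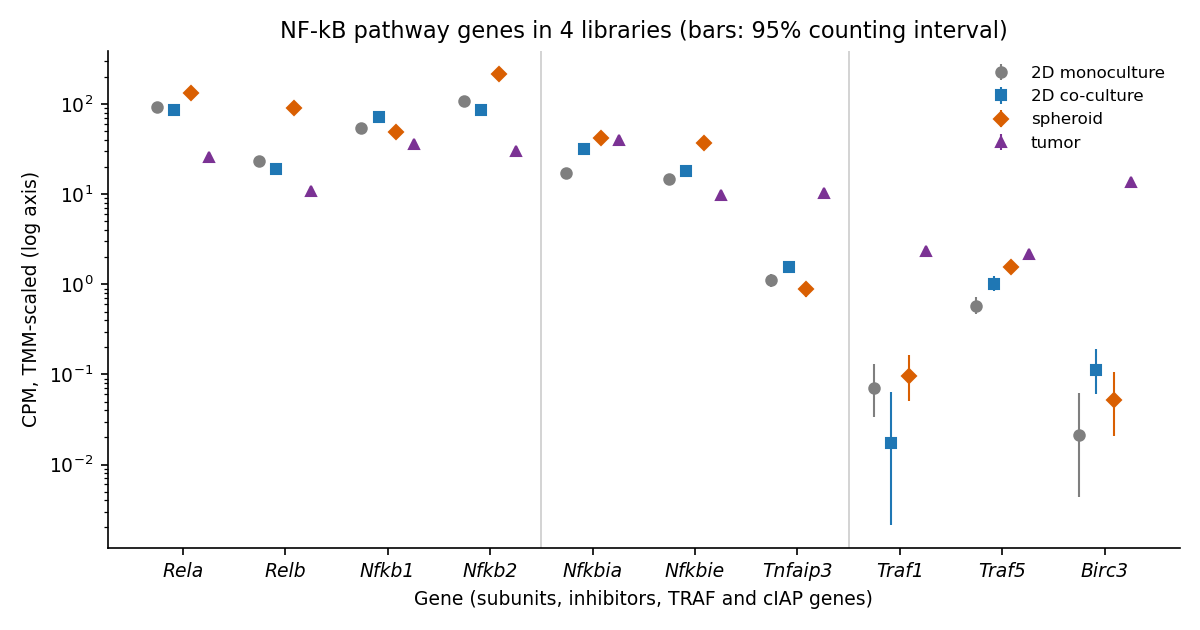
CPM of the 10 genes (log axis) in the 4 libraries, with bars for the 95% counting interval and grey lines between subunits, inhibitors and signalling genes. Relb, Nfkb2 and Nfkbie peak in the spheroid, whereas Tnfaip3, Traf1 and Birc3 stand apart in the tumor, with Birc3 at 13.7 CPM there and at most 0.114 CPM in the cultures.

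Ratios between genes of the same library do not depend on how libraries are scaled. Of the reads on Relb and Rela together, Relb took 19.9% in 2D monoculture (exact Clopper-Pearson interval 19.3 to 20.5), 18.0% in 2D co-culture (17.3 to 18.6), 40.3% in the spheroid (39.8 to 40.9) and 29.9% in the tumor (28.7 to 31.0). Both 2D cultures thus lay under the tumor, and the spheroid above it. Of the reads on Nfkb2 and Nfkb1 together, Nfkb2 took 66.9% in 2D monoculture, 54.1% in 2D co-culture, 81.5% in the spheroid and 45.6% in the tumor. In these reads the spheroid was again the highest, and the tumor was the lowest, but the order did not hold after the correction. The corrected log2 ratios to 2D monoculture of Nfkb2 and Nfkb1 were 0.34 and 1.10 for spheroids, -0.37 and 1.12 for 2D co-culture and -0.61 and -0.47 for the tumor, so that Nfkb2 stood lower against Nfkb1 in all 3 than in 2D monoculture. With the longest transcript they were 0.32 and 0.34, -0.43 and 0.48, and -0.60 and -0.70.

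When reads per kilobase of exon were summed over all 5 subunit genes, with Rel added as the remaining family member, Relb and Nfkb2 together made up 59.6% of the sum in the spheroid (delta-method interval 59.2 to 60.0), 45.7% in 2D monoculture, 40.4% in 2D co-culture and 44.3% in the tumor. With the length of the longest annotated transcript in place of all exons, the shares were 57.8%, 42.6%, 36.0% and 37.6%. Rela made up between 36.7% of the sum in spheroids and 48.4% in the 2D co-culture. With the longest transcript it was lowest in the tumor (32.0%, spheroid 33.8%) and highest in 2D monoculture (41.13%, 2D co-culture 40.95%). The share of Nfkb1 depended on the length used, since its annotated exons span 12061 bases and its longest transcript 4149: in the tumor it was 14.0% with the former and 29.0% with the latter. These shares are not corrected for GC content. Rel, a subunit of lymphoid and myeloid cells above all, had 0.254% in the spheroid and 1.91% in the tumor. By level, Rel was highest in 2D monoculture (4.32 CPM), before 2D co-culture (3.71), tumor (3.04) and spheroid (2.26). Summed CPM of the other 4 subunits were 282 for 2D monoculture and 103 for the tumor.

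**Figure D2:**
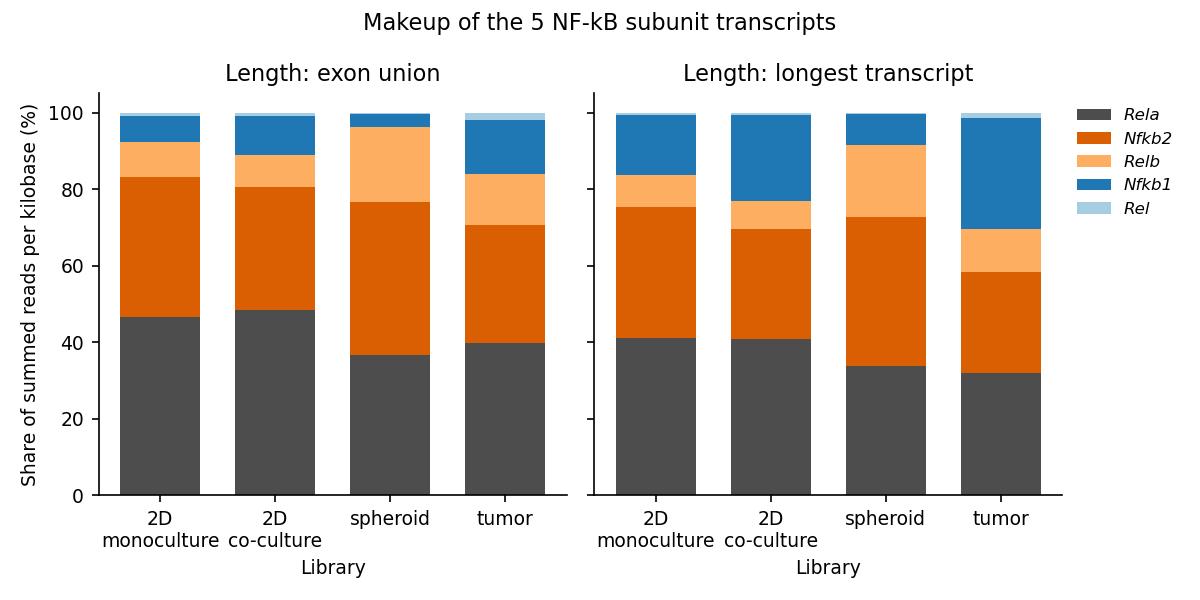
Share (%) of each of the 5 NF-kB subunit genes in their summed reads per kilobase, by library, with exon length on the left and the longest transcript on the right. The orange blocks of Nfkb2 and Relb fill 59.6% of the spheroid bar on the left and 57.8% on the right, more than in any other library.

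The inhibitors did not share a pattern. Nfkbia (chr12:55489410-55492647), which encodes IkB alpha, the inhibitor that retains RelA dimers, had 17.3 CPM in 2D monoculture, 31.8 CPM in 2D co-culture, 42.5 CPM in the spheroids (interval 41.4 to 43.6) and 40.3 CPM in the tumor (39.3 to 41.3). Spheroid and tumor lay close together and 2D monoculture lowest, with log2 ratios to 2D monoculture of 1.30 (1.23 to 1.37) for the spheroid, 1.22 (1.16 to 1.29) for the tumor and 0.88 (0.81 to 0.96) for the 2D co-culture. The log2 ratio of spheroids to tumor was 0.08 (0.03 to 0.13) with TMM factors, -0.28 with total counts, -0.06 with upper quartile factors and -0.17 after the GC and length correction, so its direction was not fixed. The study selected Nfkbia and Traf5 from these libraries for a similar level in spheroid and tumor, and left out genes of like level in the 2D cultures. The closeness of spheroid and tumor in both genes is therefore no independent evidence of such a likeness.

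Nfkbie (chr17:45555703-45563169), which encodes IkB epsilon, was highest in the spheroid and lowest in the tumor: 14.9 CPM in 2D monoculture, 18.1 CPM in 2D co-culture, 37.6 CPM in the spheroids and 9.96 CPM in the tumor. The log2 ratio of the spheroid was 1.34 (1.26 to 1.41) to 2D monoculture and 1.92 (1.84 to 2.00) to the tumor. After the correction the latter was 1.08, and 0.68 with the longest transcript, where the log2 ratio of the tumor to 2D monoculture turned from -0.58 to 0.22. Of the reads on both IkB genes, Nfkbia took 53.7% in 2D monoculture (52.2 to 55.1) and 53.0% in the spheroid (52.1 to 54.0), whose intervals overlap, against 63.8% in 2D co-culture and 80.2% in the tumor (79.3 to 81.1). Against Rela, Nfkbia had 0.184 reads per read in 2D monoculture, 0.365 in 2D co-culture, 0.317 in the spheroid and 1.55 in the tumor. After the correction, the log2 ratios to 2D monoculture of Nfkbia and Rela were 0.81 and -0.21 for spheroids and 0.55 and -0.28 for 2D co-culture. Nfkbia then stood higher against Rela in the spheroid than in the co-culture. The tumor, with 0.96 and -1.03, stayed highest.

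Tnfaip3 (chr10:19000910-19015657), which encodes A20, a ubiquitin-editing enzyme that ends NF-kB signalling, was highest in the tumor. It had 158 reads or 1.11 CPM in 2D monoculture, 177 reads or 1.55 CPM in 2D co-culture, 120 reads or 0.881 CPM in the spheroids and 1694 reads or 10.4 CPM in the tumor. The tumor exceeded 2D monoculture 9.41-fold and the spheroid 11.8-fold, and 2D monoculture and spheroid did not differ beyond counting error.

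Birc3 and Traf1 were near the detection limit in all cultures and well counted in the tumor. Birc3 (chr9:7848699-7873186), which encodes the ubiquitin ligase cIAP2 that binds TRAF2, had 3 reads in 2D monoculture, 13 in 2D co-culture, 7 in the spheroid and 2229 in the tumor, or 0.0211, 0.114, 0.0514 and 13.7 CPM. The log2 ratio of the tumor to 2D monoculture was 9.35 with a wide interval of 7.80 to 11.63, given the 3 reads. Birc2, the gene of the related cIAP1, was measured in every library (15.95, 7.005, 8.80 and 31.5 CPM in the same order), and Birc3 took 30.3% of the reads on both genes in the tumor against at most 1.60% in the cultures. Similar stretches of the pair could share reads. Traf1 (chr2:34941750-34961772), an adaptor known to be induced by NF-kB, had 10, 2, 13 and 386 reads in the same order, or 0.0702, 0.0175, 0.0955 and 2.38 CPM, and a log2 ratio of the tumor to 2D monoculture of 5.08 (4.19 to 6.15). The cultures did not differ in Traf1 beyond counting error, except that the spheroid lay above the 2D co-culture, where 2 reads give a log2 ratio of 2.45 with an interval of 0.31 to 5.64.

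Traf5 (chr1:191997205-192092559), an adaptor of receptors such as CD40 and the lymphotoxin beta receptor, was low everywhere, lowest in 2D monoculture and highest in the tumor: 83 reads or 0.583 CPM in 2D monoculture (interval 0.464 to 0.722), 117 reads or 1.02 CPM in 2D co-culture (0.845 to 1.23), 215 reads or 1.58 CPM in the spheroids (1.38 to 1.80) and 350 reads or 2.16 CPM in the tumor (1.94 to 2.39). All neighbours in this order differed beyond counting error. The log2 ratios to 2D monoculture were 1.44 (1.07 to 1.82) for the spheroid and 1.89 (1.54 to 2.25) for the tumor, both under 2-fold once 1 CPM was added. The log2 ratio of spheroids to tumor was -0.45 (-0.70 to -0.20), and after the GC and length correction it was 0.62. An antisense gene and a miRNA overlap 4.49% and 1.42% of the exon bases of Traf5.

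**Figure D3:**
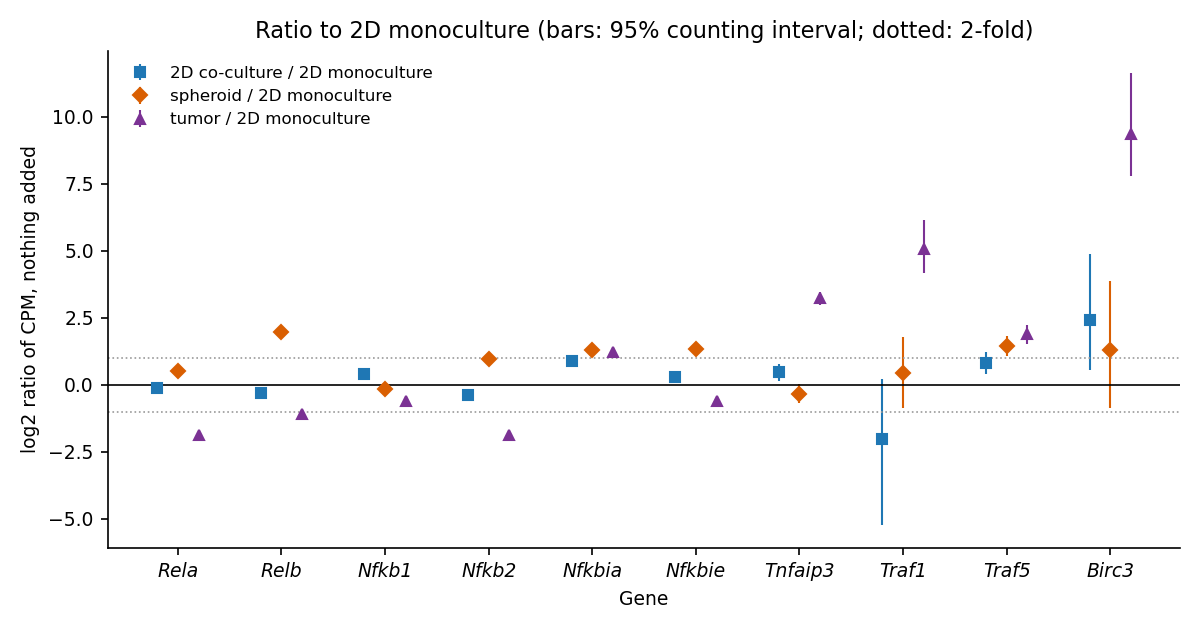
Log2 ratio of CPM to 2D monoculture, with nothing added, for the 10 genes in 2D co-culture, spheroid and tumor; bars are 95% counting intervals and dotted lines mark 2-fold. Spheroid and tumor lie on the same side of 0 for Nfkbia (1.30 and 1.22) and on opposite sides for Relb (1.96 and -1.08).

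To set levels of different genes side by side, CPM were divided by exon length. In the spheroid, Nfkb2 (47.7 CPM per kilobase) and Rela (43.7) led, before Nfkbia (26.4), Relb (23.4) and Nfkbie (12.4). In the tumor, Nfkbia led with 25.04 CPM per kilobase, before Rela with 8.45. Birc3 reached 2.74 CPM per kilobase in the tumor, beside Relb with 2.84 and Nfkb1 with 2.98. With the longest transcript as length, Nfkbia still led in the tumor (25.5) and Nfkb2 in the spheroid (56.8), but Nfkb1 in the tumor came to 8.66.

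Counts of genes past 2-fold were made with 1 CPM added to every value, and the background was 12728 genes whose mean reached 1 CPM. Of the 10 members, 9 reached that mean, all but Traf1. Birc3 reached it through the tumor alone, with 13.7 CPM there and at most 0.114 CPM in the cultures. With 1 CPM added, a gene at or under 1 CPM in a library cannot lie over 2-fold below that library. In 2D monoculture this holds for Traf1, Traf5 and Birc3. Between spheroid and 2D monoculture, 3 of 10 members were higher (Relb, Nfkbia and Nfkbie) and 0 lower, where 11.2% of all genes were higher and 17.9% lower. The median log2 ratio of the members was 0.61, against 0.05 over all genes. Nfkb2 joined the higher members with DESeq2 size factors or upper quartile factors. Between 2D co-culture and 2D monoculture, 0 of 10 members passed in either direction, where 3.79% of all genes were higher and 9.51% lower. Spheroid and 2D co-culture were both grown with fibroblasts, and between them 3 members were higher in the spheroid (Relb, Nfkb2 and Nfkbie, the last within 2-fold with total counts) and 0 lower, against 9.54% and 8.46% of all genes.

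Between tumor and 2D monoculture, 4 members were higher (Nfkbia, Tnfaip3, Traf1 and Birc3) and 3 lower (Rela, Relb and Nfkb2), against 14.8% and 18.2% of all genes (33.1% in either direction). Relb left the lower group when libraries were scaled by DESeq2 size factors, total counts or upper quartiles, and Traf5 joined the higher group, which gave 5 higher and 2 lower. Between spheroid and tumor, 4 members were higher in the spheroid (Rela, Relb, Nfkb2 and Nfkbie) and 3 lower (Tnfaip3, Traf1 and Birc3), against 26.8% and 27.6% of all genes (54.4% in either direction). Between 2D co-culture and tumor, 3 were higher in the co-culture (Rela, Nfkb2 and Nfkb1) and 3 lower (Tnfaip3, Traf1 and Birc3), against 18.8% and 20.9% (39.7% in either direction), and 2 and 3 with the other scalings, where Nfkb1 was within 2-fold. The last 3 comparisons share the tumor library. Total count scaling shifts every log2 ratio of spheroids to tumor by -0.36 and every ratio of the tumor to 2D monoculture by 0.24, and upper quartile factors shift the latter by 0.25.

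Several ratios moved with a correction that removes the median of genes of like GC content and length. The longest transcripts of Nfkb2 and Rela have 59.4% G and C each, Relb 56.8%, Nfkbie 55.4% and Nfkbia 52.9%, against a median of 49.7% over the genes compared, while Traf5 has 40.8% and Nfkb1 44.9%. After the correction, the log2 ratio of spheroids to 2D monoculture was 1.30 for Relb, 0.81 for Nfkbia, 0.83 for Nfkbie and 0.34 for Nfkb2. The count of members over 2-fold higher stayed at 3, but these were Relb, Nfkb1 and Traf5. Between tumor and 2D monoculture it was -0.14 for Relb, -0.61 for Nfkb2 and -1.03 for Rela, and with 1 CPM added, where Rela came to -0.99, 0 members were left over 2-fold lower. Nfkbia was at 0.96, under 2-fold, whereas Tnfaip3, Traf1 and Birc3 kept log2 ratios of 3.56, 6.04 and 9.31. In the comparison of spheroid and tumor, the split of 4 higher and 3 lower became 2 higher (Relb and Nfkb1) and 3 lower. The correction used exon length, which places Nfkb1 among long genes and moved its log2 ratio of spheroids to 2D monoculture from -0.14 to 1.10. With the length of the longest transcript, that value was 0.34, and Relb alone stayed over 2-fold higher in the spheroid.

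**Figure D4:**
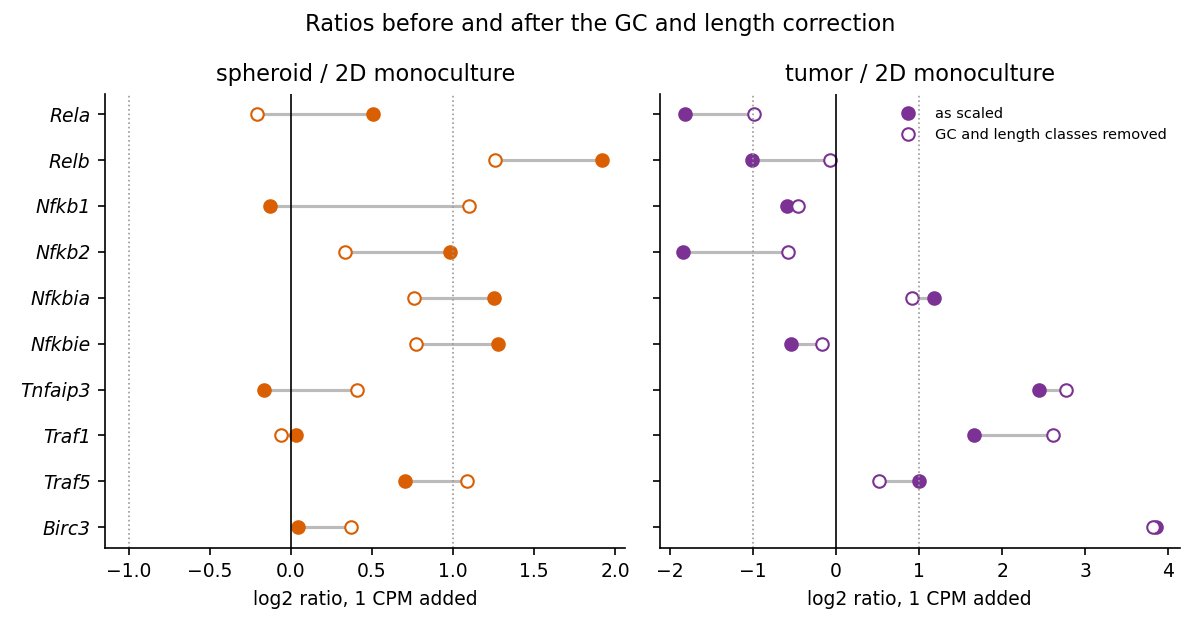
Log2 ratios to 2D monoculture with 1 CPM added, before (filled) and after (open) removal of the median of genes of like GC content and length, for the spheroid on the left and the tumor on the right. Relb stays right of the dotted 2-fold line in the spheroid (1.92 and 1.26), and Birc3 in the tumor hardly moves (3.85 and 3.82).

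Other genes of the pathway were taken from 6 lists with 74 genes in all. Of 11 genes of the IKK complex and its upstream kinases, 6 were over 2-fold lower in the spheroid than in 2D monoculture and 1 was higher, against 17.9% and 11.2% of all genes, and 4 were within 2-fold. Their median log2 ratio was -1.22 against 0.05 over all genes. After the GC and length correction, 4 were lower, 1 was higher and the median was -0.62, with Ikbkb and Ikbkg no longer among the lower ones and Ikbke in place of Map3k14 as the higher one. Ripk1, the kinase next to the TNF receptor, had 39.95 CPM in 2D monoculture, 17.1 CPM in 2D co-culture, 7.175 CPM in the spheroid library and 38.7 CPM in the tumor. Map3k7, which encodes TAK1, had 87.8, 55.3, 19.9 and 83.7 CPM in the same order. Ikbkb and Ikbkg, the genes of IKK beta and NEMO, had 14.8 and 27.6 CPM in the spheroid against 46.9 and 65.4 CPM in 2D monoculture, whereas Chuk, the gene of IKK alpha, had 28.4 and 56.1 CPM, just within 2-fold. The kinase that was higher was Map3k14, the gene of NIK, with 16.4 CPM in the spheroid and between 6.28 and 7.95 CPM in the other libraries. After the GC and length correction, the log2 ratio of spheroids to 2D monoculture was -1.88 for Ripk1, -1.64 for Map3k7, -0.93 for Ikbkb, -0.65 for Ikbkg and 0.36 for Map3k14, and with the longest transcript it was -1.56 for Ikbkb and -0.02 for Ikbkg. In the tumor, 0 of the 11 kinases differed over 2-fold from 2D monoculture, and 2 were higher after the correction.

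Among 17 other adaptors and ubiquitin enzymes, 1 was over 2-fold higher in the spheroid than in 2D monoculture and 3 were lower (Traf3, Traf6 and Cyld), shares near or under the 11.2% and 17.9% of all genes. The higher one, Rnf31, encodes the catalytic subunit HOIP of the linear ubiquitin ligase and had 25.2 CPM in 2D monoculture, 25.5 CPM in 2D co-culture, 60.35 CPM in the spheroids and 14.0 CPM in the tumor. Rbck1, of the same ligase, had 166, 168, 250.2 and 82.3 CPM in this order. Traf3, whose product holds NIK down, had 145.9, 108 and 71.3 CPM in the cultures and 41.1 CPM in the tumor. Traf2, the partner of Traf1 and Birc3 proteins, had 36.5, 39.4, 55.8 and 27.2 CPM.

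Of 11 receptors, 1 was over 2-fold lower in the spheroid than in 2D monoculture (Il1rap) and 0 were higher, against 17.9% and 11.2% of all genes. Those with the most reads, Tnfrsf12a (the TWEAK receptor), Tnfrsf1a and Ltbr, had 617, 249 and 198 CPM in the spheroid and 344, 137 and 103 CPM in 2D monoculture, each within 2-fold. In the tumor, 5 receptors were over 2-fold higher than in 2D monoculture and 1, Tnfrsf12a, was lower with 63.5 CPM, against 14.8% and 18.2% of all genes. Among the higher ones, Tnfrsf1b, the TNF receptor of leukocytes above all, had 26.25 CPM in the tumor, 3.23 CPM in 2D co-culture and at most 0.448 CPM in the other libraries, and Il1r1 had 21.0, 3.07 and at most 0.0294 CPM. Cd40, another of the higher receptors, reached a mean of 1 CPM through the tumor alone (7.30 CPM, at most 0.0140 CPM in the cultures). Of 10 ligands, 4 were over 2-fold higher in the tumor than in 2D monoculture, against the same 14.8%. Only 2 of the 10 reached the mean of 1 CPM by which the background genes were taken. The median log2 ratio of the ligands was 0.69, and 2.42 with 0.1 CPM added. Il1b had 2583 reads or 15.9 CPM there, at most 2 reads in each culture and none in 2D monoculture, at least 756-fold higher over 3 reads in that library. Tnf had 1.06 CPM in the tumor, 1.03 CPM in the spheroid, 0.190 CPM in 2D monoculture and 0.0699 CPM in 2D co-culture.

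Of 20 known target genes, 13 were over 2-fold higher in the tumor than in 2D monoculture and 2 lower, with a median log2 ratio of 2.32 against -0.14 over all genes, of which 14.8% were higher and 18.2% lower. Complement C3 had 209.8 CPM in the tumor and at most 1.14 CPM in the cultures. Ccl2, a monocyte attractant, had 65.7 CPM in the tumor, 8.16 CPM in 2D co-culture, 0.169 CPM in the spheroid and 0 reads in 2D monoculture. In the 2D co-culture 6 targets were higher than in 2D monoculture and 1 lower, against 3.79% and 9.51% of all genes, and Csf1 had 57.5 CPM there against 11.4 CPM. In the spheroid 2 targets were higher, Csf1 with 28.4 CPM and Ier3, a survival gene, with 369 CPM against 89.5 CPM in 2D monoculture, and 0 were lower, against 11.2% and 17.9% of all genes. With 1 CPM added, only targets above 1 CPM in 2D monoculture could be called lower than there. These were Ccl5, Sod2, Bcl2l1, Csf1, Gadd45b and Ier3. Cxcl2, Il6, Icam1, Bcl2a1d, Lcn2 and C3 reached the mean of 1 CPM through the tumor alone. Low in 2D monoculture, they could only be called higher in the tumor. The 13 of 20, the median of 2.32 and the pooled 24 given next are thus partly fixed by that library. Over the 74 genes of the 6 lists, 24 were higher and 8 lower in the tumor than in 2D monoculture, against 14.8% and 18.2% of all genes. In the spheroid 4 were higher and 10 lower, both shares under the 11.2% and 17.9% of all genes. With upper quartile factors, these became 25 and 5 for the tumor and 6 and 8 for the spheroid.

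**Figure D5:**
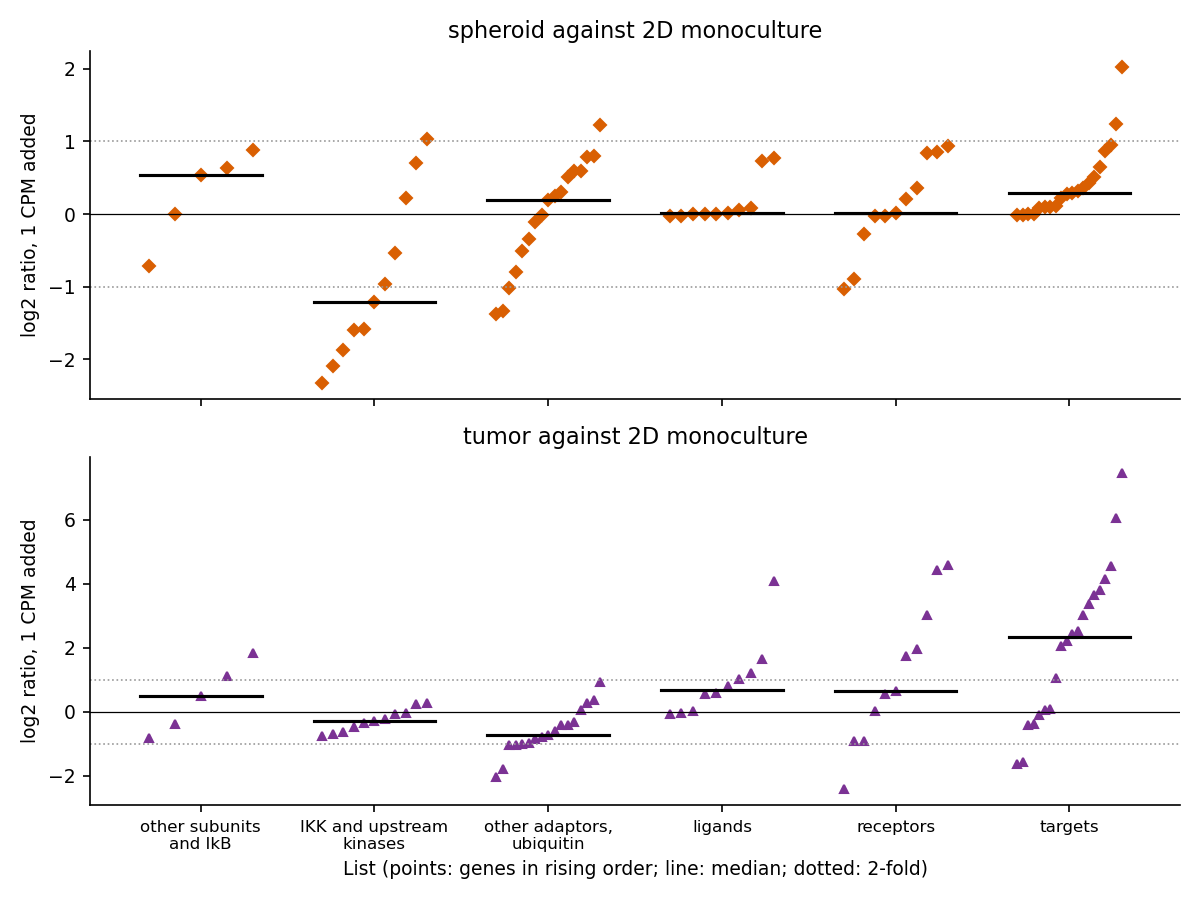
Log2 ratio to 2D monoculture, with 1 CPM added, of the 74 other pathway genes in 6 lists, for the spheroid (top) and the tumor (bottom); each point is a gene, black lines are medians and dotted lines mark 2-fold. In the spheroid the kinases lie lowest, with a median of -1.22, and in the tumor the targets lie highest, with a median of 2.32.

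Birc3, Tnfaip3 and Traf1, with their highest level in the tumor, are set beside the marker genes here. All 9 endothelial markers other than Egfl7, 8 of 9 fibroblast markers, all 5 skeletal muscle markers and all 3 adipocyte markers were over 2-fold higher in the tumor than in 2D monoculture. Skeletal muscle markers summed to 4599 CPM in the tumor and to at most 12.4 CPM in the cultures. Adipocyte markers summed to 216 CPM and to at most 0.448 CPM. The 7 lymphoid markers in the table summed to 5.51 CPM in the tumor and to at most 0.206 CPM in the cultures, with 3 of 7 over 2-fold higher. The part of these cells in the levels of Birc3, Tnfaip3 and Traf1 was not tested. Over 75 genes with at least 5000 reads in the tumor and under 0.03% of that level in 2D monoculture, medians relative to the tumor were 0.185% for the 2D co-culture, with quartiles of 0.1505% and 0.2498%, and 0.123% for the spheroid, with quartiles of 0.104% and 0.159%. Birc3 stood at 0.827% and 0.374% of its tumor level in the same libraries. With these shares of the tumor level taken off, all 50 log2 ratios of the members that involve the 2D co-culture or the spheroid stayed within their counting intervals. The amounts taken off were at most 0.0745 CPM, for Nfkbia in the 2D co-culture, and the intervals of Birc3 and Traf1 are wide. Ratios could thus hardly leave their intervals, and the step decides nothing about the part of these cells. The log2 ratio of Birc3 in the spheroid to 2D monoculture went from 1.29 to 0.71.

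Likeness of profile was measured as the Euclidean distance between log2 levels over the 4 libraries, with 1 CPM added and each gene centred on its mean. Among the members, Rela and Nfkb2 were nearest to each other (distance 0.522), as were Nfkbia and Traf5 (0.449) and Tnfaip3 and Traf1 (0.744). Nfkbia and Traf5 were selected by the study from these libraries by the same rule, so their nearness is no independent evidence of a shared pattern. Of the 61 other pathway genes that reached a mean of 1 CPM, Nfkbie was nearest to Rnf31 (0.232), Rela to Bcl2l1 (0.267), Nfkb2 to Tnfrsf12a (0.439), Relb to Ier3 (0.735), Nfkb1 to Tab2 (0.470) and Birc3 to Lcn2 (0.191). Tnfaip3 was nearest to Bcl2a1d (0.317), one of a set of near-identical copies whose counts are uncertain, Traf1 to Tlr2 (0.323), and both Nfkbia (0.738) and Traf5 (0.602) to Ikbke. Over all genes whose mean reached 10 CPM, Nfkbia was nearest to Mpc1 (0.0815), Nemp2 (0.0867) and Ostc (0.162), and Traf5 to Uap1 (0.0416), Vkorc1 (0.0787) and Ech1 (0.114). With 4 libraries such distances are descriptions only. The added 1 CPM flattens low levels, so a small distance does not mean like ratios. Traf1 had 0.0702 CPM in 2D monoculture and 2.38 CPM in the tumor, whereas Tlr2 had 4.30 and 16.8 CPM. Bcl2a1d and Lcn2 reached the mean of 1 CPM through the tumor alone. They had 4.73 and 11.7 CPM there, and at most 0.00873 and 0.0734 CPM in the cultures.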

How the data were processed

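The authors deposited 1 table of whole-number read counts per gene symbol, without normalization, for 4 libraries of poly(A)-selected RNA. The submitters' processing notes name Trimmomatic, STAR, featureCounts and the mm10 build, without versions. CPM were computed from the counts with TMM factors of edgeR 4.0.16 in R 4.3.3. DESeq2 1.42.0 size factors, total counts and upper quartile factors were alternatives. All other steps ran in Python 3.11.15 (scipy 1.17.1, pandas 2.3.3, numpy 2.4.6). For a log2 ratio, the Clopper-Pearson bounds on how the reads split between both libraries were converted to bounds of the ratio. Log2 ratios of single genes have nothing added, and counts past 2-fold and medians have 1 CPM added. Simulated counts were used to check the counting of genes past 2-fold. NOISeq and GFold, which the study names, were not run. NOISeq simulates replicates where too few are at hand, and simulated replicates are no replicates. Counting intervals of the ratios were used in place of GFold.

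Exon length, transcript length and GC content came from GENCODE M21 (GRCm38), with values for 97.9% of the 12728 genes. For the correction, genes were binned by GC content (10 bins) and by length (10 bins), and each bin's median was subtracted. No test was possible with 1 library per source. The members and lists were chosen with earlier results of these data known. The genes named are the members and, per list, the 3 of highest mean CPM and the 2 with the largest ratio of tumor and of spheroid to 2D monoculture, plus Rel, Birc2, Traf2, Traf3, Ikbkb, Chuk, Ikbkg, Map3k14 and Tnf, and the nearest profiles. RefSeq promoters were used for sequences.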

Additional observations from a re-analysis of the deposited data

How the results depend on the processing

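No paired analysis was possible because each source has 1 library. Counts that changed by at most 1.5 times are not listed. Every median over the members and over the pooled pathway genes stayed within 1.5-fold under each alternative run. No member ratio past 2-fold changed sign, and smaller ones that did with another scaling were Nfkbia between spheroid and tumor and Rela between 2D co-culture and 2D monoculture (-0.11, and 0.01 with upper quartile factors). The correction with the longest transcript and all orderings under alternatives were chosen after seeing the data. No cause was tested for the moves listed here.

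With the GC and length correction, members higher in 2D co-culture than in 2D monoculture moved from 0 to 1, higher in 2D co-culture than in the tumor from 3 to 1, higher in the spheroid than in 2D co-culture from 3 to 1, higher in the spheroid than in the tumor from 4 to 2 and lower in the tumor than in 2D monoculture from 3 to 0. With the longest transcript in that correction, members higher in the spheroid than in 2D monoculture moved from 3 to 1, and the counts of the last 4 comparisons were 1, 1, 2 and 0. Members with their highest level in 2D monoculture moved from 0 to 1 with the correction.

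Of the pathway genes, those higher in 2D co-culture than in the tumor moved from 11 to 5 (correction), 4 (total counts) and 6 (upper quartile), those higher in the spheroid than in the tumor from 18 to 5 (correction) and 11 (total counts), those higher in the spheroid than in 2D co-culture from 6 to 3 (correction), those higher in the spheroid than in 2D monoculture from 4 to 11 (0.1 CPM added), those lower there from 10 to 5 (correction), and those lower in the tumor than in 2D monoculture from 8 to 5 (DESeq2, total counts and upper quartile) and 3 (correction). The share of Relb and Nfkb2 moved to 42.6%, 36.0%, 57.8% and 37.6% with the longest transcript, in 2D monoculture, 2D co-culture, spheroid and tumor. Depth limits Traf1 and Birc3, with at most 13 reads in each culture.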
